A study of Saccharomyces cerevisiae with 19 samples.

Results

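The stretches examined here are intergenic DNA of budding yeast that lies between 2 neighbouring protein-coding genes transcribed toward each other, so that both genes end there. A probe was taken when its midpoint was at least 50 kb from both ends of its chromosome, when it lay between 2 such genes of the R64 gene table and when it overlapped no R64 gene of any kind. The rule used positions only and no measured value. It gave 896 of 41480 chromosomal probes (2.16%), in 567 intervals named below by their 2 flanking genes, and 768 of these probes, in 511 intervals, were measured on every array and could be tested. Of the 567 intervals, 404 held 1 probe and the richest held 11. The intervals were 87 to 8042 bp long, with a median of 344 bp. The median probe lay 91 bp from the nearest gene, and 373 probes lay within 75 bp of one. Nearly all protein-coding spans of the gene table (96.3%) are multiples of 3 in length, so they are coding lengths, and the intervals hold the untranslated ends of both messages. Chromosomes 10 and 11 and the ribosomal DNA region were not analysed here.

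Sir3 is a structural subunit of the silencing complex of budding yeast. Together with Sir2, which removes acetyl groups from histones, and Sir4, it spreads along nucleosomes from the telomeres and the silent mating-type loci, and the complex keeps the genes there off. Convergent gaps carry no promoter of their flanking genes, unlike divergent and tandem gaps, and hold the sites where messages are cleaved and transcription by RNA polymerase II stops. tRNA genes, which RNA polymerase III transcribes from promoters within the gene, lie in 37 of the 511 tested intervals.

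Sir3 was precipitated from formaldehyde-fixed cells with a polyclonal antibody, and the recovered DNA (Cy5) was hybridised against whole cell extract DNA (Cy3) on 19 tiling arrays with probes of up to 60 bases. Values below are log2 ratios of precipitated over extract DNA minus the median of all chromosomal probes of the array, so 0 is the typical chromosomal probe. The groups were SIR3 driven by the ADH promoter (pADH-SIR3, strain yAT2627, 2 arrays), by the TEF promoter (pTEF-SIR3, yAT2629, 2) or by the GPD promoter (pGPD-SIR3, yAT1254, 2), the last also as single arrays of strains yAT2554 and yAT2476. Further groups were SIR2 driven by the GPD promoter (pGPD-SIR2, yAT1667, 1 array), both genes driven by it (pGPD-SIR2 pGPD-SIR3, yAT1668, 2) and the GPD-driven sir3-A2Q allele (pGPD-SIR3-A2Q, yAT1256, 2). The remaining groups with driven SIR3 were collected 8 h after release from 5 mM nicotinamide, an inhibitor of Sir2, as dot1::KanMX pGPD-SIR3 (yAT3183, 2) and pGPD-SIR3 (yAT1254, 2). Dot1 methylates a lysine in the core of histone H3. Cells with wild-type SIR3 (WT, yAT191, 2) completed the set. The sample titles mark most arrays as Expo and Glu, read here as exponential growth in glucose. Titles of the NAM release arrays carry Expo alone, and those of yAT1667, yAT1668 and yAT2476 carry neither mark. Every strain carried GFP-tagged RAP1. The strains yAT191, yAT1254, yAT1256 and yAT3183 also had the truncated left end of chromosome 7 with a URA3 reporter at adh4 and lacked PPR1, yAT2627, yAT2629 and yAT2554 lacked HML, and yAT1667 and yAT1668 carried ADE2 in the ribosomal DNA. The strains of a comparison therefore differed in more than the promoter or allele wherever their backgrounds differed. The labels do not say that arrays of a group came from separate cultures, so the p-values below measure only the spread between arrays, which may be technical.

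As a check of the precipitation, HMR probes had means of 1.52 and 1.41 on the A2Q arrays, 3.53 and 4.19 on the dot1 arrays and 7.03 and 7.46 on the WT arrays. A set of 863 to 890 convergent probes was measured per array. Over the 768 probes, the replicate arrays correlated least in WT (r = 0.473, median absolute difference 0.305) and most in the dot1 group (r = 0.950, median absolute difference 0.109). Differences from WT thus rest on the noisiest pair of arrays.

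The typical convergent probe lay near the chromosomal median in most groups. The median over convergent probes was 0.11 on the yAT2476 array and 0.07 and 0.06 on the pGPD-SIR2 pGPD-SIR3 arrays. It was -0.05 and -0.01 on the dot1 arrays, 0.12 and 0.14 on the pGPD-SIR3 NAM release arrays and -0.06 and 0.04 on the WT arrays. On the A2Q arrays convergent probes had medians of -0.01 and 0.01, whereas divergent probes had -0.19 and -0.17 and tandem probes -0.14 and -0.16. The dot1 arrays showed a like gap between the classes (divergent -0.20 and -0.20, tandem -0.15 and -0.15), and so did WT replicate 1 but not replicate 2 (divergent -0.13 and 0.03). Both pGPD-SIR3 arrays had a smaller gap (convergent -0.002 and 0.02, divergent -0.09 and -0.06, tandem -0.11 and -0.08). In 337 intervals each flanking gene held at least 2 probes measured on every array. The interval's mean minus that of its flanks had a median of -0.06 and -0.03 on the dot1 arrays. It was -0.06 and -0.02 on the NAM release arrays and -0.16 and -0.07 on the WT arrays. Just inside the 50 kb limit, 4 members at 50 to 55 kb had a median of 0.98 in the dot1 group, and 9 otherwise similar probes just outside it, at 45 to 50 kb, had 1.15. In the NAM release group these medians were 0.30 and 0.04, and in WT -0.16 and 0.09.

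In the TEF- and GPD-driven SIR3 strains the rise over WT was largest in 1 long convergent interval of chromosome 4, which ranked second in pADH-SIR3. It lies between APC11, which encodes a subunit of the anaphase-promoting complex, and the small gene YDL007C-A, is 2572 bp long and holds a tRNA gene. Its 7 probes span positions 434115 to 436360 as the array files give them (no genome build is stated there). The mean of these 7 probes was 1.11 and 1.09 on the pADH-SIR3 arrays, 2.35 and 2.26 on the pTEF-SIR3 arrays, 2.17 and 2.28 on the pGPD-SIR3 arrays, and 0.35 and 0.66 on the WT arrays. The single arrays of the other GPD-driven SIR3 strains had 2.11 (yAT2554) and 2.14 (yAT2476), and the pGPD-SIR2 array had 1.79 although its SIR3 is not GPD-driven. In the group means, pTEF-SIR3 (2.30 ± 0.07, SD, n = 2) and pGPD-SIR3 (2.23 ± 0.07) were alike within their spread, pADH-SIR3 (1.10 ± 0.01) was lower, and WT (0.51 ± 0.22) was lowest of these 4.

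The raised stretch ended near APC11 on one side and in the gap before RPT2 on the other. The 5 probes inside APC11 and inside RPT2, the proteasome ATPase gene beyond YDL007C-A, averaged 0.28 to 0.76 on every array except the first A2Q array, which had 0.03. The signal stayed raised across YDL007C-A and over the nearer probes of the gap between it and RPT2. At the last probe of that gap the group means were down to 0.25 in pADH-SIR3, 0.32 in pTEF-SIR3 and 0.67 in pGPD-SIR3, with -0.05 in WT. The probe at 435965 had 2.22 and 2.23 on the pGPD-SIR3 arrays against -0.09 and -0.09 on the WT arrays. The difference was 2.31 (SE 0.13, limma adjusted p = 1.68e-07), and 2.30 between the pair of arrays taken to share a slide. The probe at 435647 had 2.92 and 2.68 on the pTEF-SIR3 arrays against 0.52 and 0.40 on the WT arrays, a difference of 2.34 (SE 0.18, adjusted p = 1.35e-06), and 2.52 within the shared slide. The same probe had 1.16 and 1.10 on the pADH-SIR3 arrays, and the difference of pTEF-SIR3 minus pADH-SIR3 was 1.67 (SE 0.18, adjusted p = 4.2e-05). None of these groups overlapped the one it was set against.

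**Figure D1:**
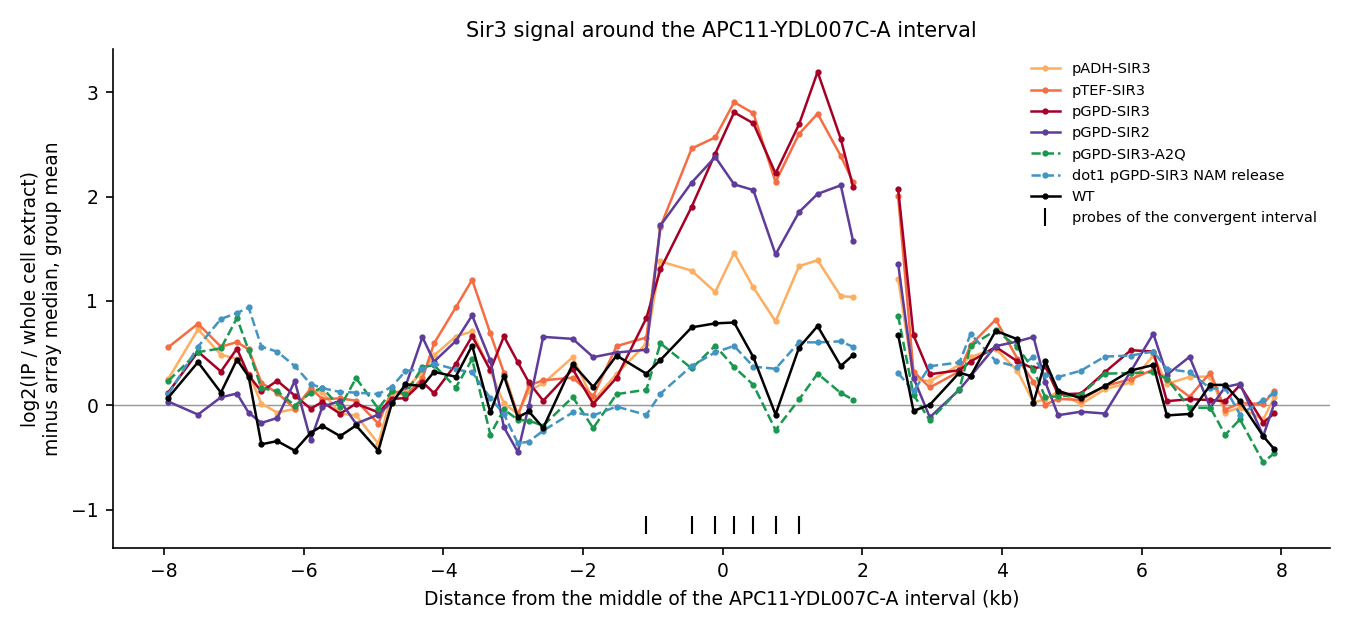
Group means of the log2 ratio of precipitated over whole cell extract DNA, minus the array median, against the distance from the middle of the APC11-YDL007C-A interval. Each line is a group of 1 or 2 arrays, each point a probe, and ticks mark the 7 probes of the interval. The pTEF-SIR3, pGPD-SIR3 and pGPD-SIR2 lines mostly stand highest and cross one another, and pADH-SIR3 is mostly intermediate. A2Q, dot1 NAM release and WT stay below 1 over the interval.

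In A2Q cells and in dot1 cells this interval had little Sir3 signal. The A2Q allele replaces the second residue of Sir3, whose acetylation the wild-type protein needs for firm binding to nucleosomes. The interval mean was 0.17 and 0.24 on the A2Q arrays against 2.17 and 2.28 on the pGPD-SIR3 arrays. At 436301 the A2Q arrays had 0.02 and 0.09 and the pGPD-SIR3 arrays 2.40 and 2.99, a difference of -2.64 (SE 0.20, limma adjusted p = 2.11e-07), and -2.93 within the shared slide. The interval mean was 0.37 and 0.40 on the dot1 arrays against 1.98 and 2.09 on the NAM release arrays with DOT1. At 435647 the dot1 arrays had 0.36 and 0.38 and the NAM release arrays 2.24 and 2.21, a difference of -1.86 (SE 0.18, adjusted p = 3.15e-06). The arrays of both pairs did not overlap.

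In the SIR3 promoter comparisons, the shares of convergent probes called lay near those of all probes at least 50 kb from the ends. In the comparison of pADH-SIR3 with WT, 5 of 768 were higher and 4 lower at an adjusted p under 0.05 (limma), against 1.27% higher and 0.507% lower of all chromosomal probes, and 0.66% and 0.383% of the probes of every class at least 50 kb from the ends (internal probes). In pTEF-SIR3 against WT, 39 were higher and 13 lower (8.69% higher and 1.6% lower of all chromosomal probes, 5.9% and 1.59% of internal ones), and in pGPD-SIR3 against WT 32 were higher and 7 lower (7.01% and 1.07%, internal 3.99% and 1.15%). In pTEF-SIR3 against pADH-SIR3, 16 were higher and 1 lower (3.99% and 0.0246%, internal 1.6% and 0.0316%). The shares of convergent probes that rose, 5.08% in pTEF-SIR3 and 4.17% in pGPD-SIR3, were below those of divergent probes (15.7% and 9.24%) and tandem probes (10.8% and 6.85%) and near those of coding probes (4.02% and 3.01%).

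These counts hang on single arrays. The 3 comparisons with WT share its 2 arrays, and without WT replicate 1 they called 93 (pADH-SIR3), 134 (pTEF-SIR3) and 161 (pGPD-SIR3) convergent probes, without WT replicate 2 23, 87 and 43. Leaving out a replicate of the driven strain gave 2 for pADH-SIR3 either way, 31 and 18 for pTEF-SIR3, and 24 and 16 for pGPD-SIR3, and pTEF-SIR3 against pADH-SIR3 gave 9 to 11. For pADH-SIR3 against WT, dividing each array by its internal spread turned the split into 10 higher and 3 lower.

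Beyond APC11, SQT1-GAT4, YHR125W-ANS1 and ACH1-RRN6 were among the 5 largest rises over WT in both pTEF-SIR3 and pGPD-SIR3. PDH1-YPR003C (chromosome 16), beside a gene for a mitochondrial protein of propionate metabolism, was among them in pTEF-SIR3 and was the largest rise in pADH-SIR3, but not among them in pGPD-SIR3. Over its 3 tested probes the means were 0.37 in pADH-SIR3, 0.42 in pTEF-SIR3, 0.19 in pGPD-SIR3 and 0.12 in WT, so the rank rests on a single probe. That probe had 0.64 and 0.72 on the pADH-SIR3 arrays and 0.68 and 0.68 on the pTEF-SIR3 arrays. On the pGPD-SIR3 arrays it had 0.13 and 0.26, and on the WT arrays -0.45 and -0.04. The difference from WT was 0.92 in pADH-SIR3 (SE 0.15, limma adjusted p = 0.0043), 0.92 in pTEF-SIR3 (adjusted p = 0.000743) and 0.44 in pGPD-SIR3 (adjusted p = 0.0974). Without pADH-SIR3 replicate 2 the pADH-SIR3 difference was 0.88 (adjusted p = 0.0591). At SQT1-GAT4 (chromosome 9, 379888 to 379947), next to a ribosome assembly factor gene and a GATA-family gene, the pADH-SIR3 arrays had 0.71 and 0.85, the pTEF-SIR3 arrays 1.53 and 1.60, the pGPD-SIR3 arrays 1.65 and 1.83, and the WT arrays 0.55 and 0.61. The difference from WT was 0.98 in pTEF-SIR3 (SE 0.13, limma adjusted p = 0.000183) and 1.16 in pGPD-SIR3 (SE 0.13, adjusted p = 3.66e-05). At YHR125W-ANS1 (chromosome 8) the difference from WT was 0.63 in pADH-SIR3, 1.14 in pTEF-SIR3 and 1.11 in pGPD-SIR3. ACH1-RRN6 on chromosome 2, which separates an acetyl-CoA hydrolase gene from one for a factor of RNA polymerase I and holds 9 tested probes and 2 tRNA genes, averaged 0.67 and 0.70 in pTEF-SIR3, 0.74 and 0.80 in pGPD-SIR3 and 0.07 and 0.22 in WT. SQT1-GAT4 and ACH1-RRN6 were low in A2Q cells as well, with 0.14 and 0.27 at the SQT1-GAT4 probe and means of -0.06 and -0.01 over ACH1-RRN6. At SQT1-GAT4 the dot1 group had 1.25 and 1.42 against 1.28 and 1.48 in the NAM release group, which overlapped. At YHR125W-ANS1 it had -0.12 and -0.17 against 1.01 and 0.84 (difference -1.07, SE 0.14, adjusted p = 3.77e-05), and ACH1-RRN6 averaged 0.26 and 0.17 against 0.70 and 0.70, with 4 of its 9 probes lower.

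A rise at YHR033W-PIH1 (chromosome 8) rested on 1 array. Its probe had 1.00 and 2.80 on the pGPD-SIR3 arrays against 0.16 and 0.40 on the WT arrays (difference 1.62, SE 0.37, adjusted p = 0.0126), and 0.84 within the shared slide. The falls at this probe in the comparisons made against the pGPD-SIR3 arrays, -1.73 in A2Q, -1.42 in pGPD-SIR2 pGPD-SIR3 and -1.46 in NAM release, share that array.

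Several convergent intervals around centromeres had less Sir3 signal than WT in the promoter-driven strains. Yeast genes are numbered outward from the centromere, so the gap between the first genes of the left and right arms holds it. Among the convergent intervals these were RMD1-NTH1, YIL001W-SGN1, DNM1-YLR001C, YPT7-CDC5 and DOM34-CIT1, on chromosomes 4, 9, 12, 13 and 14, with 20 member probes in all. They were grouped after their values were seen, so their means are given without a test. Of their 14 probes measured on all arrays, 2 were among the 4 convergent probes lower than WT in pADH-SIR3, 4 among the 13 in pTEF-SIR3 and 3 among the 7 in pGPD-SIR3. The mean of these 5 intervals was 0.09 and 0.37 on the pADH-SIR3 arrays, 0.03 and 0.12 on the pTEF-SIR3 arrays, 0.08 and 0.13 on the pGPD-SIR3 arrays, 0.42 on the pGPD-SIR2 array and 0.54 and 0.76 on the WT arrays. It was -0.01 and 0.43 on the A2Q arrays and 0.35 and 0.35 on the pGPD-SIR2 pGPD-SIR3 arrays. The dot1 arrays had -0.03 and -0.04, and 10 of the 14 probes were lower than in NAM release, where 16.8% of all chromosomal and 16.2% of internal probes were lower. The NAM release arrays had 0.83 and 0.83 and the yAT2476 array 0.76, so they stood with or above WT although their SIR3 is GPD-driven. In the 9 divergent or tandem centromere gaps the means were 0.05 and 0.25 in pTEF-SIR3, -0.03 and 0.04 in pGPD-SIR3 and -0.43 and -0.33 in dot1. They were 0.85 and 0.75 in NAM release, 0.55 and 0.57 in pGPD-SIR2 pGPD-SIR3 and 0.44 and 0.52 in WT. Single gaps of pGPD-SIR2 pGPD-SIR3 went both ways in either class. Its group mean was 1.27 against 0.26 in WT at ECM15-NTH2, but 0.36 against 0.93 at TFC3-NUP60. Among the convergent gaps, DNM1-YLR001C had 0.53 against 0.37, and YPT7-CDC5 0.65 against 0.82.

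**Figure D2:**
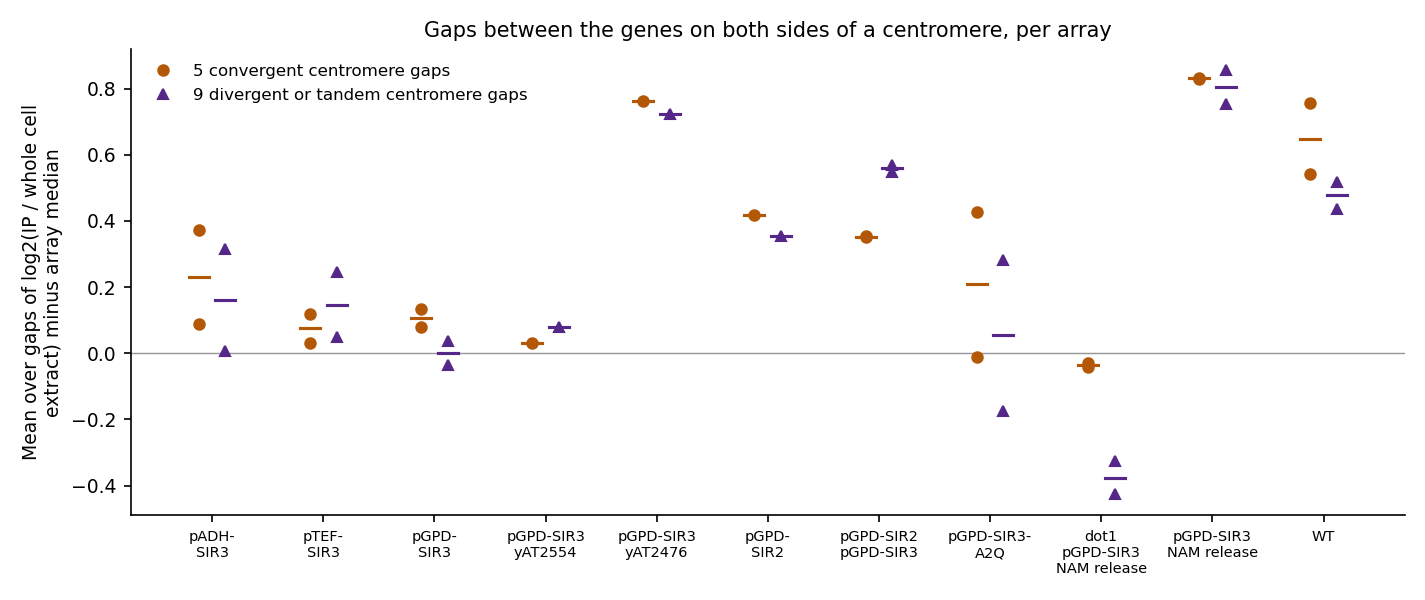
Mean over centromere gaps of the log2 ratio of precipitated over whole cell extract DNA minus the array median, for the 5 convergent gaps (circles) and the 9 divergent or tandem gaps (triangles). Each point is an array and each bar the mean of a group's arrays; the WT arrays and the pGPD-SIR3 NAM release and yAT2476 arrays lie above the pADH-SIR3, pTEF-SIR3 and pGPD-SIR3 arrays, and the dot1 arrays lie lowest among the divergent or tandem gaps.

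The probe at YPT7-CDC5 (chromosome 13, 268109 to 268168), beside the gene of a vacuolar Rab GTPase and that of the mitotic polo kinase, had one of the highest WT values of all convergent probes. It had 1.14 and 1.44 on the pADH-SIR3 arrays, 0.99 and 0.87 on the pTEF-SIR3 arrays and 0.93 and 1.10 on the pGPD-SIR3 arrays, against 2.20 and 2.62 on the WT arrays. The difference from WT was -1.12 in pADH-SIR3 (limma adjusted p = 0.0113), -1.48 in pTEF-SIR3 (SE 0.20, adjusted p = 0.000189, -1.63 within the shared slide) and -1.39 in pGPD-SIR3 (SE 0.20, adjusted p = 0.000338, -1.26 within the shared slide). Over the 6 probes of this gap the means were closer, with 0.44 in pADH-SIR3, 0.56 in pTEF-SIR3, 0.48 in pGPD-SIR3 and 0.82 in WT. Single probes went both ways, and that at 268502 had a mean of 0.56 in pTEF-SIR3 and -0.16 in WT. At RMD1-NTH1 the probe at 449915 had -0.21 and -0.30 in pTEF-SIR3 and 0.97 and 1.02 in WT, a difference of -1.25 (SE 0.15, adjusted p = 7.1e-05). Over the 4 probes of that gap the mean was 0.13 in pTEF-SIR3 and 0.59 in WT. The probes at 449426 (0.14 against 0.16) and 450109 (0.23 against 0.28) differed little between these groups. YIL001W-SGN1 fell by 1.21 in pTEF-SIR3 and by 0.89 in pGPD-SIR3 (adjusted p = 0.0206), where its difference was -0.41 within the shared slide, and its WT arrays differed widely (0.41 and 1.18). DOM34-CIT1 fell by 0.77 in pTEF-SIR3 and by 0.76 in pGPD-SIR3.

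Set against WT, A2Q cells had 13 convergent probes higher and 15 lower (limma, 1.25% and 2.94% of all chromosomal probes, 1.38% and 1.88% of internal ones), and set against pGPD-SIR3 they had 10 higher and 41 lower (0.561% and 8.54%, internal 0.639% and 5.01%). The share lower than in pGPD-SIR3 was 5.34% of convergent probes, 15.0% of divergent, 9.46% of tandem and 3.24% of coding probes. Of the 51 convergent probes called against pGPD-SIR3, 45 lay outside APC11-YDL007C-A. The A2Q count against WT was 182 without WT replicate 1, 16 without WT replicate 2, and 9 and 16 without A2Q replicate 1 and 2. Its split became 9 higher and 6 lower after dividing each array by its internal spread, and 8 higher and 15 lower after centring on coding probes. Against pGPD-SIR3, leaving out pGPD-SIR3 replicate 2 gave 30 calls.

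The 2 largest falls in A2Q relative to WT lay beside retrotransposons. Relative to pGPD-SIR3, these intervals ranked behind APC11-YDL007C-A. At YDR210W-B-YDR210C-D (chromosome 4, 877748 to 877807), between open reading frames of 2 Ty elements, the A2Q arrays had 0.24 and 0.48, the pGPD-SIR3 arrays 2.72 and 2.30 and the WT arrays 2.58 and 2.70. The difference was -2.15 from pGPD-SIR3 (SE 0.31, limma adjusted p = 0.000162) and -2.28 from WT (SE 0.31, adjusted p = 0.000502). At YOR343W-B-TYE7 (chromosome 15), between a Ty reading frame and a gene for an activator of glycolytic genes, the A2Q arrays had 1.60 and 1.08, the pGPD-SIR3 arrays 3.06 and 3.21 and the WT arrays 2.64 and 3.01. The difference from pGPD-SIR3 was -1.79 (adjusted p = 0.000373). Ty elements have near-identical copies, so which copy such probes measured is uncertain. These Ty-flanked probes were also the highest 2 of the convergent intervals in WT, followed by YPT7-CDC5, PAU2-TCA17 and NCE103-YNL035C. SQT1-GAT4 fell by 1.54 relative to pGPD-SIR3 (SE 0.13, adjusted p = 1.08e-06). Among the rises, TOM40-INP1, beside the gene of the mitochondrial import channel, had 0.78 and 0.74 in A2Q and 0.00 and -0.02 in WT (difference 0.77, adjusted p = 0.00492). YHR020W-RPS27B rose by 1.31 over WT (adjusted p = 0.0404), but on unequal arrays (1.82 and 0.41).

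In the single pGPD-SIR2 array, 25 convergent probes were higher and 13 lower than WT (limma, 2.84% and 2.09% of all chromosomal probes, 2.4% and 2.34% of internal ones). This test takes the spread of that lone array from the other groups. Without WT replicate 1 it called 110 and without WT replicate 2 97. APC11-YDL007C-A led the rises, with 2.06 at 435647 against 0.52 and 0.40 in WT (difference 1.60, SE 0.22, adjusted p = 0.00314), and without that interval 32 probes were called. NCE103-YNL035C (chromosome 14), the longest interval with 8042 bp and 4 tested probes, beside the carbonic anhydrase gene, had 1.47 at its probe at 561135, while its WT arrays stood apart at -0.35 and 0.85 (difference 1.22, adjusted p = 0.0483). The largest falls were at EKI1-KGD2 (-1.59, chromosome 4), the centromere interval YPT7-CDC5 (-1.43) and PTP2-NPT1 (-1.38, chromosome 15). The pGPD-SIR2 values at EKI1-KGD2 and PTP2-NPT1 were -1.10 and -0.82, lower than on any other array.

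When SIR2 was driven together with SIR3, Sir3 signal gathered in long convergent intervals. Against pGPD-SIR3, 85 convergent probes were higher and 15 lower (limma, 7.01% and 4.33% of all chromosomal probes, 6.76% and 2.63% of internal ones). The share higher was 11.1% of convergent, 17.3% of divergent, 15.9% of tandem and 3.89% of coding probes. The comparison spans strains of different backgrounds, and 47 to 55 probes were called when any of its 4 arrays was left out.

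The rises went with interval length. Split into terciles, the 258 probes of short intervals (87 to 342 bp), the 255 of middle ones (344 to 810 bp) and the 255 of long ones (814 to 8042 bp, 77 intervals) had different levels in this strain. Long-interval probes had medians of 0.52 and 0.42 on the pGPD-SIR2 pGPD-SIR3 arrays, and short-interval probes -0.10 and -0.16. Against pGPD-SIR3, 69 of 255 long-interval probes were higher (27.1%) and 5 lower, with a median difference of 0.33, and 5 of 258 short-interval probes were higher and 8 lower, with a median difference of -0.09. Around the long intervals the mean profile of this group peaked at the interval's centre with 0.55, against 0.20 in WT, and around the short intervals it dipped to -0.07. Long gaps of other kinds had like values on the same arrays, with medians of 0.38 and 0.41 in divergent and 0.38 and 0.39 in tandem gaps. Probe number per interval and the distance to genes also grow with length, and their part in the result was not tested.

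**Figure D3:**
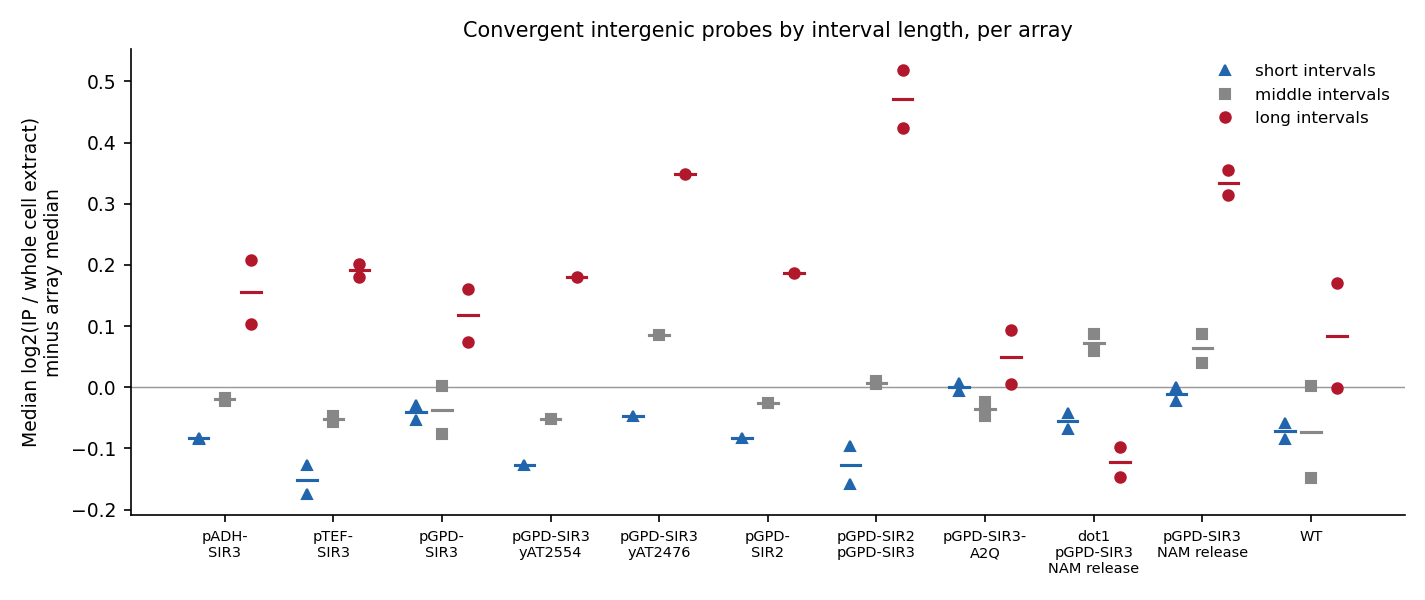
Median log2 ratio of precipitated over whole cell extract DNA, minus the array median, of convergent probes in short (triangles), middle (squares) and long (circles) intervals. Each point is an array and each bar the mean of a group's arrays; the means of long intervals stand above those of short ones in every group except the dot1 group, most of all in pGPD-SIR2 pGPD-SIR3, where they reach 0.52 and 0.42.

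MID2-RPS25B (chromosome 12, 3766 bp) was the clearest such interval. It separates the gene of a cell wall stress sensor from that of a small-subunit ribosomal protein, holds a tRNA gene, and its 8 probes averaged 1.63 and 1.88 on the pGPD-SIR2 pGPD-SIR3 arrays against 0.33 and 0.45 on the pGPD-SIR3 arrays. On every other array its mean lay between 0.03 and 0.78. The probe at 793484 had 1.83 and 2.09 against 0.11 and 0.40 in pGPD-SIR3, a difference of 1.71 (SE 0.19, limma adjusted p = 9.94e-05). The second largest rise was in a short interval. CDA1-DPA10 (chromosome 12, 322 bp), beside a chitin deacetylase gene, had 2.17 and 2.03 against 0.14 and 0.68 in pGPD-SIR3 (difference 1.69, SE 0.19, adjusted p = 9.94e-05). The long intervals BER1-YLR412C-A (1074 bp) and YLR227W-B-ECM22 (1312 bp), also on chromosome 12, rose by 1.63 and 1.48, and YCR001W-CDC10 (1380 bp) on chromosome 3 rose by 1.43. Chromosome 12 carries the ribosomal DNA, where the pGPD-SIR2 pGPD-SIR3 and pGPD-SIR2 strains hold the ADE2 insertion. MID2-RPS25B averaged 0.28 on the pGPD-SIR2 array. Any part of the insertion in these rises was not tested.

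After release from nicotinamide, 67 convergent probes were higher and 3 lower than in pGPD-SIR3 (limma, 3.44% and 3.26% of all chromosomal probes, 3.72% and 1.32% of internal ones). All arrays of the NAM release groups came in the later of 2 deposits, whereas both pGPD-SIR3 arrays came in the first. No deposit holds both groups, and with the deposit as a block 3 probes were called. Leaving out NAM release replicate 1 or 2 gave 2 and 17 calls, and leaving out pGPD-SIR3 replicate 1 or 2 gave 15 and 17. The yAT2476 array of the first deposit, which had no nicotinamide, had a mean of 0.76 over the centromere intervals, against 0.83 and 0.83 on the NAM release arrays.

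The intervals next to ribosomal protein genes stood out in this comparison with pGPD-SIR3. In 57 probes of 40 intervals with such a flank, 16 were higher in NAM release than in pGPD-SIR3 and 0 lower (28.1% higher, with 33 higher and 0 lower at an unadjusted limma p under 0.05), with a median difference of 0.50, against 0.10 over all 768 convergent probes. Their medians were 0.67 and 0.53 on the NAM release arrays, 0.22 and 0.18 on the pGPD-SIR3 arrays and 0.14 and 0.06 on the WT arrays. Other groups stood above 0 as well, with 0.61 on the yAT2476 array and 0.24 and 0.35 on the dot1 arrays. The A2Q arrays had 0.26 and 0.42 and the pTEF-SIR3 arrays 0.22 and 0.34. RPS0B-MLO50 (chromosome 12) had 1.15 and 1.19 against -0.14 and 0.17 in pGPD-SIR3 (difference 1.16, SE 0.24, limma adjusted p = 0.0145). RPS26B-PMD1 (chromosome 5) had 0.80 and 0.91 against -0.18 and -0.32 (difference 1.10, SE 0.17, adjusted p = 0.00306). DNM1-YLR001C, a centromere interval beside the gene of the mitochondrial fission dynamin, led the rises with 1.00 and 1.11 against -0.34 and -0.06 (difference 1.25, SE 0.25, adjusted p = 0.0122). Intervals beside the listed highly transcribed genes numbered 4, with 6 probes, of which 2 were higher and 0 lower, the same at an unadjusted p under 0.05. The median of these 6 was 0.65 on the yAT2476 array and 0.36 and 0.38 on the NAM release arrays.

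Loss of DOT1 moved more convergent probes than any of the other 9 comparisons, and in both directions. Between dot1 pGPD-SIR3 NAM release and pGPD-SIR3 NAM release, 106 were higher and 205 lower (limma, 21.2% and 16.8% of all chromosomal probes, 20.4% and 16.2% of internal ones), with a median difference of -0.18. The share lower was 26.7% of convergent, 35.7% of divergent, 29.2% of tandem and 11.3% of coding probes, and the share higher was 13.8%, 8.02%, 11.2% and 24.1% in the same order. Both groups had nicotinamide and lie in 1 deposit, and leaving out any of the 4 arrays gave 198 to 203 calls. Dividing each array by its internal spread gave 50 higher and 171 lower, and 196 probes were called among those at least 75 bp from every gene.

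The falls gathered around tRNA genes. Of the 768 probes, 111 in 41 intervals lay within 1 kb of a tRNA gene, and among them 0 were higher and 79 lower in dot1 cells (71.2%, with 1 higher and 89 lower at an unadjusted limma p under 0.05). Their differences had a median of -0.76, ranged from -1.69 to 0.39 and were below 0 in 106 of 111. Among the 657 probes farther away, 106 were higher and 126 lower (16.1% and 19.2%), with a median difference of -0.11. The near probes had medians of -0.21 and -0.15 on the dot1 arrays, 0.55 and 0.53 on the NAM release arrays and 0.07 and 0.23 on the WT arrays. Those farther away lay near 0 in all of these groups, and the near probes lay below the chromosomal median in dot1 cells only.

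**Figure D4:**
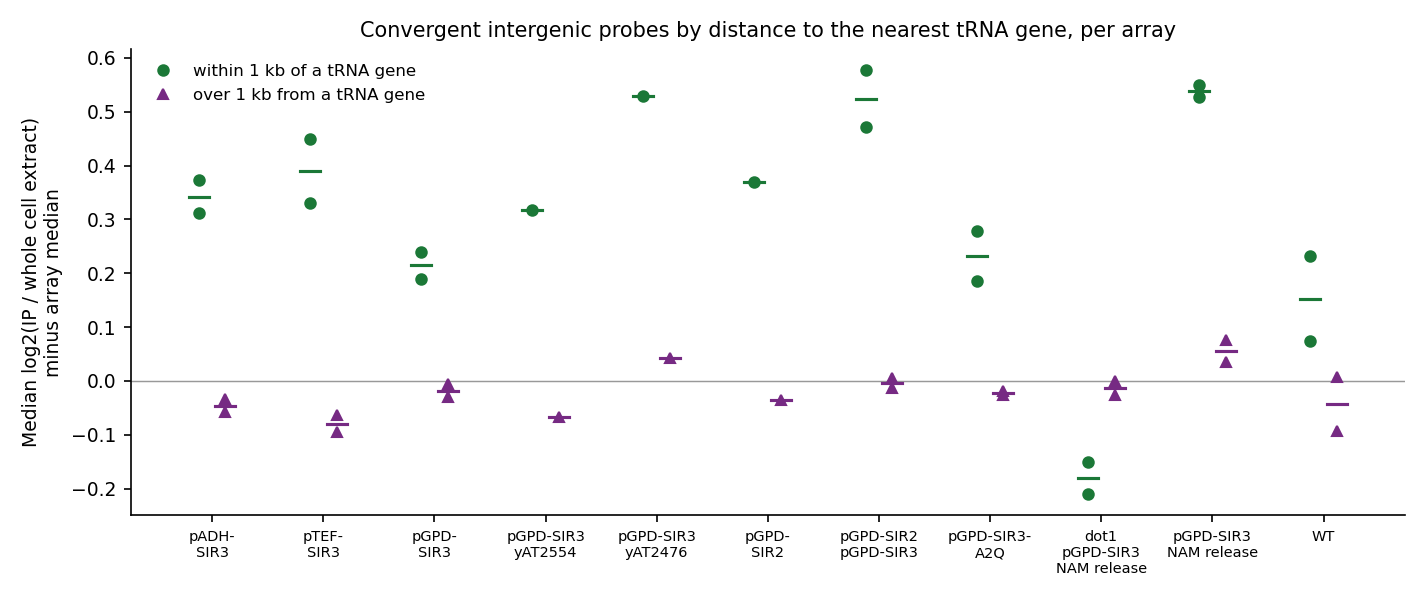
Median log2 ratio of precipitated over whole cell extract DNA, minus the array median, of convergent probes within 1 kb of a tRNA gene (circles, 111 probes) and farther away (triangles, 657 probes). Each point is an array and each bar the mean of a group's arrays; the near probes stand above the far ones in every group except the dot1 group, where they lie at -0.21 and -0.15.

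Long intervals alone showed the split as well. In dot1 cells 71 of 96 long-interval probes near a tRNA gene were lower, with a median difference of -0.77, and 57 of 159 long-interval probes farther away, with a median of -0.30. Counted by interval, 37 held a tRNA gene, and the interval mean was lower in dot1 cells in 35 of them, with a median difference of -0.65. The exceptions were ARP10-TMN2 and GCD11-CHO1. Of the 474 other intervals 268 were lower, with a median of -0.06. The pattern was not particular to convergent gaps, because 199 of 229 divergent probes (86.9%) and 258 of 326 tandem probes (79.1%) within 1 kb of a tRNA gene were also lower. Among single intervals with a tRNA gene, CGR1-SCW11 (chromosome 7), beside a ribosomal RNA processing gene, had -0.66 and -0.38 in dot1 against 0.89 and 0.88 in NAM release (difference -1.40, SE 0.19, adjusted p = 5.56e-05). MFM1-YPL060C-A (chromosome 16), beside a mitochondrial magnesium transporter gene, had -0.81 and -0.61 against 0.53 and 0.67 (difference -1.31, SE 0.13, adjusted p = 3.27e-06).

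Part of the same near probes rose with SIR2 and SIR3 together. The 111 had medians of 0.58 and 0.47 on the pGPD-SIR2 pGPD-SIR3 arrays and 28 of 111 were higher than in pGPD-SIR3 (25.2%), with 3 lower, against 57 of 657 farther away (8.68%). Among long intervals alone, however, the median difference was 0.34 near a tRNA gene and 0.31 farther away. NAM release had 18 of 111 near probes higher than pGPD-SIR3 (16.2%) and 0 lower (43 and 6 at an unadjusted limma p under 0.05), against 49 of 657 farther away (7.46%), and the yAT2476 array a near median of 0.53.

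The changes in dot1 cells, rises and falls, went with those of the neighbouring genes. The 337 intervals with flanks measured as above were used. The dot1 minus NAM release difference of the interval went with the mean difference of its flanks at r = 0.934. This is a description over points that share the same 4 arrays. Where both flanks were higher by more than 0.5, the interval was higher in 40 of 40 cases, with a median of 0.97. With 1 such flank it was higher in 54 of 64, with a median of 0.46. With none it was higher in 72 of 233, with a median of -0.13, against -0.14 in the flanks. The 37 long intervals had a median difference of -0.42, against -0.17 in their flanks. Some of them lay above the mean of their flanks, such as RPL31A-BRE1 with 0.40 against 0.20. Its flanks went opposite ways (-0.77 in RPL31A and 1.18 in BRE1), and the interval lay between them.

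**Figure D5:**
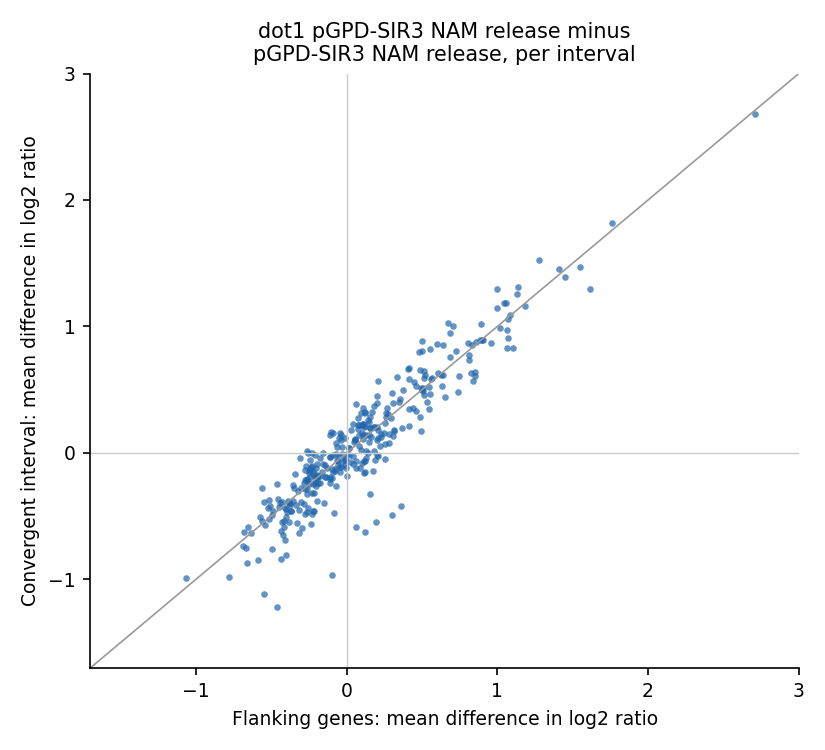
Mean difference in log2 ratio, dot1 pGPD-SIR3 NAM release minus pGPD-SIR3 NAM release, of each convergent interval (vertical axis) against that of its flanking genes (horizontal axis) for 337 intervals. Each point is an interval and the line marks equal differences; the points follow the line (r = 0.934), and a few intervals lie well below it.

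The single largest rise was at SRP68-IQG1 (chromosome 16, 90555 to 90614), between the genes of a signal recognition particle subunit and of the IQGAP protein of the cytokinetic ring. Its probe had 2.76 and 3.11 on the dot1 arrays against 0.02 and 0.40 on the NAM release arrays, a difference of 2.72 (SE 0.20, limma adjusted p = 3.43e-07). On every other array it lay below 0. CDC24-CLN3 (chromosome 1), between the exchange factor gene of Cdc42 and that of a G1 cyclin, had 1.99 and 1.91 against 0.13 and 0.14 (difference 1.82, SE 0.17, adjusted p = 1.89e-06). SPT16-CHC1 (chromosome 7), between genes of the histone chaperone FACT and of clathrin, had 1.43 and 1.52 against 0.02 and -0.01 (difference 1.47, SE 0.12, adjusted p = 6.91e-07). BPL1-RPO21 (chromosome 4), beside the gene of the largest subunit of RNA polymerase II, had 1.36 and 1.45 against 0.00 and -0.11 (difference 1.46, adjusted p = 7.64e-06). These 4 intervals are 248 to 466 bp long, in the short and middle classes, and the groups did not overlap at any of them.

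Among the falls, DNM1-YLR001C on chromosome 12 had -0.40 and -0.42 in dot1 against 1.00 and 1.11 in NAM release (difference -1.46, SE 0.25, limma adjusted p = 0.000484). YHR140W-RPL42B, beside a large-subunit ribosomal protein gene, had -0.42 and -0.18 against 0.91 and 0.92 (difference -1.21, SE 0.15, adjusted p = 2.78e-05). Among all 57 probes beside ribosomal protein genes, 4 were higher and 22 lower in dot1 cells, with a median difference of -0.42. Of all convergent probes 13.8% were higher and 26.7% lower, and of all chromosomal probes 21.2% and 16.8%.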

How the data were processed

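Sir3 ChIP-chip values of 19 arrays in 11 groups were used. The labels' protocols describe whole cell extract and precipitated DNA amplified by random priming and PCR before dye coupling. The deposited sample files give a linear ratio of precipitated over extract signal and a rescaled copy of it with missing probes filled by the authors. No label or header names the scanner settings, background correction, spot filter or genome build. The sample titles name no slide either. Arrays were taken to share a slide when their deposited names carry the same long number. Arrays without such a number were taken as the later deposit. The unfilled ratio was put on the log2 scale and each array centred on the median of its chromosomal probes. No further normalisation was applied, and the number of arrays limits the precision. Probe coordinates were set against the R64 gene table. Bounds of at least 75 bp from genes were tried because the builds may differ. A G+C split was not computed, since no genome sequence was used here.

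limma 3.58.1 (R 4.3.3) was fitted per probe over 36515 chromosomal probes measured on all arrays, with 1 mean per group (8 residual degrees of freedom, prior 5.64), and Benjamini-Hochberg adjustment at 0.05 within each of 10 comparisons. At an unadjusted p under 0.05 the convergent probes called numbered 116, 163, 158 and 57 in the promoter comparisons, in the order given above. The fit was tested on simulated data. Figures were drawn with matplotlib 3.10.9 and tables made with pandas 2.3.3 under Python 3.11.15.

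Named intervals are the 5 with the largest rise and the 5 with the largest fall per comparison among called probes whose groups do not overlap, at most 1 per 20 kb, and the 5 with the highest and lowest WT values. Members and lists were chosen with earlier results of these data known. The centromere intervals and the flank limit of 0.5 were chosen after their values were seen.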

Additional observations from a re-analysis of the deposited data

How the results depend on the processing

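Counts are convergent probes called at an adjusted p under 0.05 (limma). Using only the arrays of the groups compared gave 0 for pADH-SIR3 (46 at an unadjusted p under 0.05), 11 for pTEF-SIR3, 11 for pGPD-SIR3, 3 for A2Q and 0 for pGPD-SIR2 (42 unadjusted) against WT, and 122 for NAM release against pGPD-SIR3. The first deposit alone, with fewer arrays, gave 0 (38 unadjusted), 12, 15, 5 and 7 against WT in the same order, 4 for pTEF-SIR3 against pADH-SIR3, 29 for A2Q and 20 for pGPD-SIR2 pGPD-SIR3 against pGPD-SIR3. Slide as a random block there gave 0 (30 unadjusted), 13, 18, 4 and 6, then 4 for pTEF-SIR3 against pADH-SIR3 and 17 for pGPD-SIR2 pGPD-SIR3. The deposit as a block left 3 for NAM release. Interval means, over fewer units, gave 10 for pTEF-SIR3 against pADH-SIR3, 32 for A2Q against pGPD-SIR3, 22 for pGPD-SIR2 and 49 for pGPD-SIR2 pGPD-SIR3. Probes at least 75 bp from every gene, a smaller set, gave 17 for A2Q against WT, 45 for NAM release and 196 for dot1. Scaling by internal spread gave 15 for A2Q against WT. Leaving out 1 array gave 2 to 93, 18 to 134, 16 to 161, 9 to 182 and 97 to 110 against WT, 9 to 11 for pTEF-SIR3 against pADH-SIR3, 30 to 41 for A2Q and 47 to 55 for pGPD-SIR2 pGPD-SIR3 against pGPD-SIR3, 2 to 17 for NAM release and 198 to 203 for dot1. Where no smaller set of arrays or probes is named, the cause was not tested. Of the named probes under centring, scaling, replicate and block alternatives, 468 values kept direction and call, 118 kept direction only and 0 reversed.

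Replicate numbers did not pair the arrays: the correlation of same-numbered deviations was -0.184 to 0.223 between groups. With the number as a replicate block, 317 probes were called for dot1, 72 for NAM release, 39 for pGPD-SIR3 and 31 for A2Q against WT, and 50 for A2Q against pGPD-SIR3.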
